A study of Mus musculus with 8 samples.

Results

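The genes described here are 10 of the 12528 with deposited values, and all 10 encode receptor tyrosine kinases of fibroblasts. They were picked by name as Pdgfra, Pdgfrb, Egfr, Fgfr1, Fgfr2, Met, Igf1r, Insr, Ddr1 and Ddr2. Every gene had a row in the deposited table, and all 10 passed the filter on low values. The cells were immortalized mouse embryonic fibroblasts (MEFs) from wild-type (WT) littermates and from littermates without caveolin-1 (Cav1KO). CAV1 is the main coat protein of caveolae, the small flask-shaped pits of the plasma membrane. Cells of each genotype were grown at low confluence on stiff or on soft polyacrylamide hydrogels, and RNA was taken 24 h after seeding. The 4 groups, named by genotype and gel (for example WT stiff), had 2 libraries each. The Cav1KO cells had developed without Cav1, and each genotype is an immortalized culture, so a difference between genotypes can also be one between cultures. Whether libraries of a group came from separate cultures is not given in the sources used here, and the p-values measure only the spread between these libraries, which may be technical.

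Receptor tyrosine kinases span the plasma membrane once, bind a ligand outside the cell and phosphorylate tyrosines inside it. Most are paired by a soluble growth factor, while the insulin and IGF1 receptors are preformed pairs, and the DDR receptors bind fibrillar and other collagens in the matrix. The phosphorylated tail recruits adaptors that switch on RAS and ERK, PI3K and AKT, or phospholipase C. In fibroblasts these receptors carry the signals of PDGF, EGF, FGF, HGF, IGF and collagen, which drive division, migration and matrix production.

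Values are TMM-normalized CPM, which relate a gene's reads to the effective size of its library. Recovered depth ranged from 17089836 to 19944952 reads per library, and 3 reads correspond to 0.151 to 0.181 CPM. The lowest receptor value, that of Fgfr2 in a WT stiff library, was 9.19 CPM, far above this limit. For the targeted gene Cav1, WT libraries held 949.8 to 1157 CPM, and each Cav1KO library held 1 to 8 reads in all, as the labels state. Of 12 fibroblast markers 10 had a value, at a summed 4886 CPM or more in every library, with no value for Thy1 or Lum. None of the 13 epithelial, 7 endothelial or 7 muscle markers had a value here. In Cav1KO stiff replicate 2, genes with transcripts over 7 kb were low, with a median deviation of -0.38 (log2) from their means over the 8 libraries. The same class was high in Cav1KO soft, at 0.27 and 0.18, and in WT stiff replicate 1, at 0.20. The 10 receptor genes have longest annotated transcripts of 3.87 kb (Ddr1) to 11.4 kb (Igf1r), so this trend bears on the results below to unequal degrees. In the class of Ddr1, 2 to 4 kb, the median deviations of the libraries were only -0.05 to 0.04.

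Upstream sequences of the genes that carry the main results are shown to give the local context of their start sites. They are the 250 bases before the RefSeq start (GRCm38.p6), written 5′ to 3′ on the gene's own strand. Pdgfra had the largest stiffness difference of the 10, Fgfr2 the largest genotype difference, and Igf1r is a gene whose stiffness effect differed between genotypes. Pdgfra lies on the plus strand at chr5:75152001-75152250, Fgfr2 on the minus strand at chr7:130266809-130267058, and Igf1r on the plus strand at chr7:67952007-67952256. Capitals mark a GC box, GGGCGG on either strand, the letters bound by SP1-type factors.
Pdgfra: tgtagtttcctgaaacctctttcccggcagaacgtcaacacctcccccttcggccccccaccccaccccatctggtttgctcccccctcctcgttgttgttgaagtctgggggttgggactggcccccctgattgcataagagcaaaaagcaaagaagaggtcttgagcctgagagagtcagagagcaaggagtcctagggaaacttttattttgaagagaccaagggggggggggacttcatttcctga
Fgfr2: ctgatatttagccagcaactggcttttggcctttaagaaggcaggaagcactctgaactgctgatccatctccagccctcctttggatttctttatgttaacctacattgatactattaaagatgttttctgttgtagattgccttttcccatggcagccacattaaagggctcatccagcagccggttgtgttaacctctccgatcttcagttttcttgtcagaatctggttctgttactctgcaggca
Igf1r: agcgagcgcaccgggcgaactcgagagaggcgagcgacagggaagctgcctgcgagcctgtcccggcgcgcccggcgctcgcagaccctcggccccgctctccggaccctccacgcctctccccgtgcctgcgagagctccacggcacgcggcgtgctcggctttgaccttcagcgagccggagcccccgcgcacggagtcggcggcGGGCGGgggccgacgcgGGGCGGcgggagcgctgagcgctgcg

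The Igf1r window is 77.6% G and C with 42 CpG sites, against 54.4% and 4 sites for Pdgfra and 44% and 2 sites for Fgfr2. The median over 32851 mouse windows of this length was 52.4% and 6 sites. RefSeq windows were used for 7 of the 10 genes, with 4 start sites for Ddr1 and 10 windows in all. Chromosome 18, where Pdgfrb lies, was left out for the receptor genes but not for the mouse windows as a whole. GGAATG, the core letters of a TEAD site, was in none of the 10 windows on either strand, and 12.6% of all windows hold it. An AP-1 motif, TGANTCA, was in the Met window, 54 bases before the start, and in 1 Ddr1 window, against 6.75% of all windows. The CArG box of SRF was in none, against 1.47% of all windows, and the GC box was in 6 of the 10, against 32.7% of all windows. Several of these 6 are starts of Ddr1, and the others belong to Egfr, Igf1r and Met. Windows of the same gene are not independent. None of these motifs contains another, and the letters alone do not show a site or its use.

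**Figure D1:**
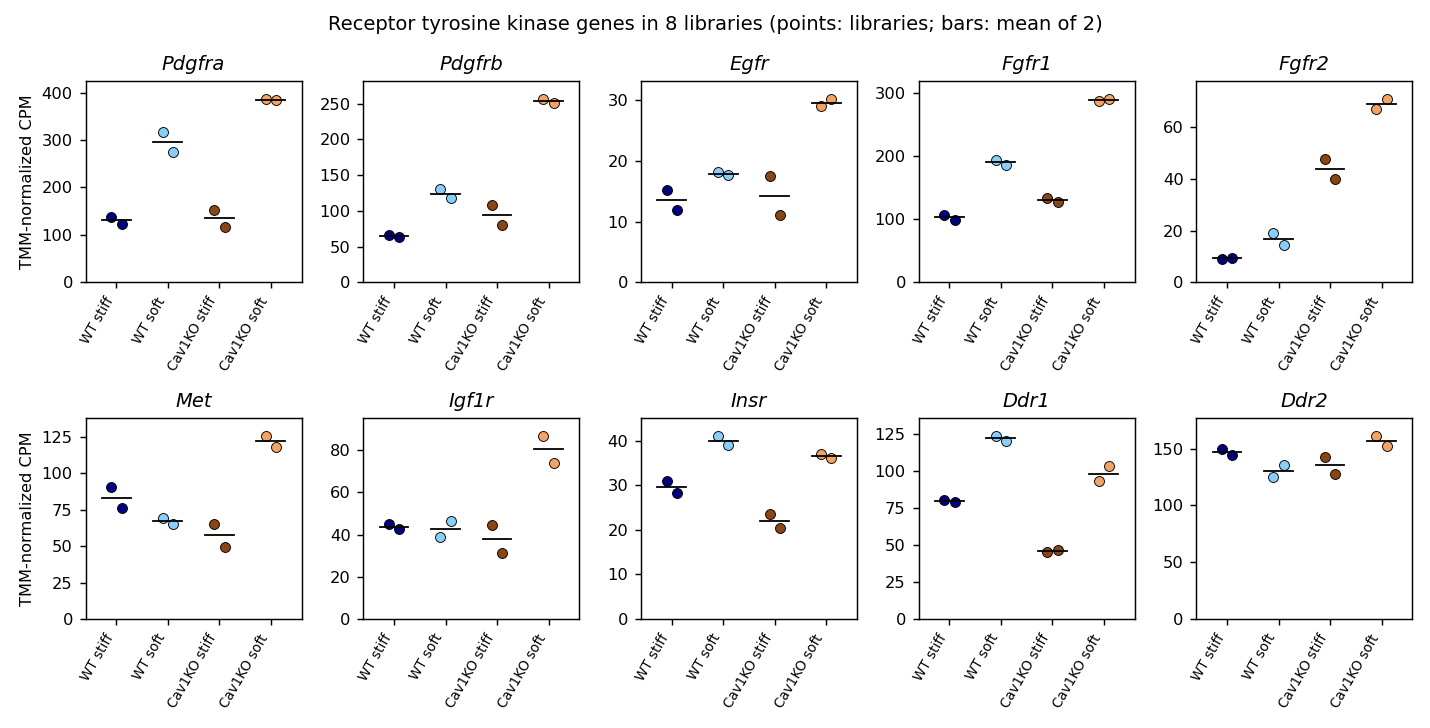
TMM-normalized CPM (y axis, from 0) of the 10 receptor genes in the 4 groups (x axis). Points are libraries and bars are the mean of 2. All 10 genes have their highest value in a soft library, of WT cells for Insr and Ddr1 and of Cav1KO cells for the others, and the WT stiff and Cav1KO stiff libraries of Pdgfra lie together at 117.3 to 152.0 CPM.

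The effect of substrate stiffness was asked first. In WT cells 6 of the 10 receptor genes were lower on stiff than on soft gels, 0 were higher and 4 did not pass the test. Over all 12494 genes tested, 26.3% were lower and 22.1% were higher. The 6 were Pdgfra, Pdgfrb, Fgfr1, Fgfr2, Insr and Ddr1. In Cav1KO cells 10 of 10 were lower on stiff and 0 higher, against 28.2% lower and 27.9% higher over all genes. The median stiff minus soft difference of the receptor genes was -0.51 (log2) in WT and -1.08 in Cav1KO cells, beside -0.02 over all genes in both. The test was limma on log2(CPM + 1) with Benjamini-Hochberg adjustment over all genes, at a threshold of 0.05. In bulk RNA, fewer cells with a given state and less RNA per cell cannot be told apart.

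These counts moved with the length trend and with single libraries. A smooth trend on transcript length was then removed from each library, an alternative chosen after the data were seen. With it removed, 7 receptor genes were lower in WT (Egfr joined) and 9 in Cav1KO cells (Ddr2 no longer passed). The medians over the 10 receptor genes were then -0.59 and -0.77, beside -0.02 and -0.03 over all genes. As deposited, 36.5% of all genes from 4 to 7 kb and 47.5% over 7 kb were lower on stiff in Cav1KO cells (19.8% and 11.5% higher). In WT cells 25.3% and 15.1% were lower (21.4% and 20.8% higher). Ddr1 alone of the 10 is under 4 kb. Leaving out single libraries gave 5 to 7 lower in WT and 9 or 10 in Cav1KO cells.

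Fibroblast markers moved with the receptors. Their summed level was 11299 and 11366 CPM on stiff and 14555 and 14847 on soft gels in WT cells, and 4886 and 6071 on stiff and 14510 and 14538 on soft gels in Cav1KO cells. Of the 10 markers, 7 were lower on stiff in WT and 10 in Cav1KO cells, and 0 were higher in either. Among all genes tested, 26.3% were lower and 22.1% higher in WT, and 28.2% and 27.9% in Cav1KO cells. Postn (periostin, a matrix protein) had the largest fall in Cav1KO cells, at -2.70, and Col3a1 in WT cells, at -2.11. Of 6 mural cell markers 3 had a value, and their sum was lower on stiff too, at 24.0 to 28.4 against 41.6 to 47.8 CPM in WT and 8.77 to 10.2 against 34.7 to 37.0 CPM in Cav1KO cells. Of the 3, only Notch3 was called lower on stiff, at -1.99 in WT (adjusted p = 8.35e-05) and -2.38 in Cav1KO cells (adjusted p = 2.29e-05), and 0 were higher. The other two, Cspg4 (-0.32 and -0.10) and Mcam (0.39 and 0.35), did not pass in either genotype. These 3 genes were named after their values were seen. Rgs5, Abcc9 and Kcnj8, the rest of the mural list, had no value. The part of these markers in the receptor results was not tested.

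**Figure D2:**
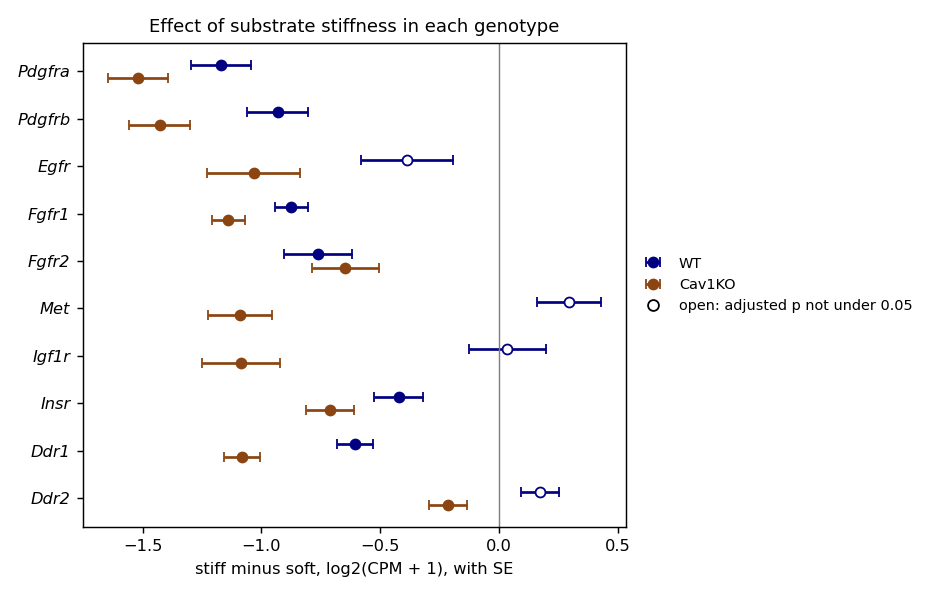
Stiff minus soft difference in log2(CPM + 1) (x axis) for each receptor gene, with its limma standard error as bars, in WT (navy) and Cav1KO cells (brown). Filled points passed the threshold on adjusted p. All 10 Cav1KO points lie below 0, and Met, Igf1r and Ddr2 have WT points above 0 that did not pass.

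Pdgfra encodes the receptor that binds PDGF-A and PDGF-C dimers and marks mesenchymal cells. Its values were 137.9 and 123.0 CPM on stiff and 316.7 and 273.9 on soft gels in WT cells, and 152.0 and 117.3 on stiff and 385.7 and 384.7 on soft gels in Cav1KO cells. Both soft groups lay above both stiff groups with no overlap. The mean was 2.26 times as high on soft in WT cells and 2.86 times in Cav1KO cells. The stiff minus soft differences were -1.17 ± 0.13 (SE, adjusted p = 0.000187) and -1.52 ± 0.13 (adjusted p = 3.48e-05), and both passed under all 20 alternative fits. These are the largest stiffness differences among the 10 genes.

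Pdgfrb is the receptor for PDGF-B and PDGF-D and is known for its role in mural cells. It was at 66.2 and 62.7 CPM on stiff and 130.1 and 117.8 on soft gels in WT cells, and 108.6 and 80.6 on stiff and 256.1 and 251.0 on soft gels in Cav1KO cells. WT stiff was the lowest group and Cav1KO soft the highest, each clear of the others. The stiff minus soft difference was -0.93 ± 0.13 in WT (adjusted p = 0.000545) and -1.43 ± 0.13 in Cav1KO cells (adjusted p = 4.74e-05). Pdgfrb was also higher in Cav1KO than in WT cells on both gels, 1.47 times on stiff and 2.05 times on soft.

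Fgfr1 is the main FGF receptor of mesenchymal cells. It measured 107.4 and 99.7 CPM on stiff and 194.5 and 186.6 on soft gels in WT cells, and 133.9 and 128.1 on stiff and 288.7 and 290.6 on soft gels in Cav1KO cells. No group overlapped another, and the order of groups was that of Pdgfrb. The stiffness difference was -0.87 ± 0.07 in WT (adjusted p = 6.22e-05) and -1.14 ± 0.07 in Cav1KO cells (adjusted p = 1.33e-05). Its standard error was the smallest of the 10 genes, and both effects passed under all 20 alternative fits.

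Fgfr2 encodes an FGF receptor whose splice forms divide between epithelium and mesenchyme, which values per gene cannot separate. Its values were 9.19 and 9.52 CPM on stiff and 19.1 and 14.3 on soft gels in WT cells, and 47.7 and 40.1 on stiff and 67.2 and 70.9 on soft gels in Cav1KO cells. Every Cav1KO library lay above every WT library. The stiff minus soft difference was -0.76 ± 0.14 in WT (adjusted p = 0.00263) and -0.65 ± 0.14 in Cav1KO cells (adjusted p = 0.00463). In the values as deposited it was the only one of the 10 with a larger stiffness difference in WT than in Cav1KO cells. The difference of the effects, -0.12 ± 0.20, did not pass (adjusted p = 0.706) and changed sign under 4 of the alternative fits.

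Ddr1 encodes a collagen receptor found mainly in epithelium. It was at 80.2 and 79.2 CPM on stiff and 123.4 and 120.2 on soft gels in WT cells, and 45.0 and 46.6 on stiff and 92.8 and 103.5 on soft gels in Cav1KO cells. It was the only one of the 10 called lower in Cav1KO than in WT cells on both gels. The stiffness difference was -0.61 ± 0.08 in WT (adjusted p = 0.00039) and -1.08 ± 0.08 in Cav1KO cells (adjusted p = 2.12e-05).

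Insr, the insulin receptor, was at 31.0 and 28.2 CPM on stiff and 41.0 and 38.9 on soft gels in WT cells, and 23.5 and 20.4 on stiff and 36.9 and 36.1 on soft gels in Cav1KO cells. Soft values lay above stiff values in both genotypes. The difference was -0.42 ± 0.10 in WT (adjusted p = 0.00903) and -0.71 ± 0.10 in Cav1KO cells (adjusted p = 0.000496). The WT call was lost without WT stiff replicate 2 (-0.35, adjusted p = 0.0577) and without WT soft replicate 1 (-0.38, adjusted p = 0.0619). With the length trend removed the differences were -0.58 in WT (adjusted p = 0.000861) and -0.37 in Cav1KO cells (adjusted p = 0.00766).

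Egfr, the receptor for EGF and its relatives, had 15.2 and 11.9 CPM on stiff and 18.2 and 17.6 on soft gels in WT cells, and 17.5 and 11.1 on stiff and 29.0 and 30.1 on soft gels in Cav1KO cells. The stiff replicates of each genotype were far apart for so low a gene. The Cav1KO stiffness difference was -1.03 ± 0.19 (adjusted p = 0.00215), or -0.67 (adjusted p = 0.00186) with the length trend removed. The WT difference was -0.39 ± 0.19 and did not pass (adjusted p = 0.132), although the WT libraries did not overlap. With that trend removed the WT difference was -0.56 (adjusted p = 0.00582), and it also passed without Cav1KO stiff replicate 1 or 2, which enter only through the shared spread.

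Met, the receptor for HGF, went the other way in WT cells. It was at 90.8 and 75.9 CPM on stiff and 69.6 and 65.5 on soft gels in WT cells, and 65.3 and 49.4 on stiff and 125.7 and 118.4 on soft gels in Cav1KO cells. The WT stiff values lay above the WT soft values, while the Cav1KO stiff values lay below the Cav1KO soft values. The WT difference was 0.29 ± 0.13 and did not pass (adjusted p = 0.103), and it passed in 5 of 20 alternative fits. The Cav1KO difference was -1.09 ± 0.13 (adjusted p = 0.000236), a mean 2.13 times as high on soft.

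Igf1r encodes the receptor for IGF1 and IGF2. It was at 44.8 and 42.4 CPM on stiff and 38.7 and 46.6 on soft gels in WT cells, and 44.3 and 31.2 on stiff and 86.7 and 74.0 on soft gels in Cav1KO cells. Only the Cav1KO soft libraries stood apart. The other 6 libraries overlapped, at 31.2 to 46.6 CPM. The WT difference was 0.04 ± 0.16 (adjusted p = 0.874), with either sign in the alternative fits, and the Cav1KO difference was -1.08 ± 0.16 (adjusted p = 0.000666). The latter was -0.70 (adjusted p = 0.000326) with the length trend removed.

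Ddr2 encodes the collagen receptor of mesenchymal cells and had the narrowest range relative to its level, 125.4 to 161.1 CPM. It was at 149.8 and 144.7 CPM on stiff and 125.4 and 135.4 on soft gels in WT cells, and 142.9 and 127.9 on stiff and 161.1 and 152.7 on soft gels in Cav1KO cells. The WT difference was 0.17 ± 0.08 (adjusted p = 0.104). The Cav1KO difference of -0.21 ± 0.08 was just past the threshold (adjusted p = 0.0499) and passed in 5 of 20 alternative fits. It was 0.10 (adjusted p = 0.248) with the length trend removed.

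Whether the stiffness effect itself differed between genotypes was tested as the WT effect minus the Cav1KO effect. Met, Igf1r and Ddr1 passed (3 higher, 0 lower, 7 not), against 4.47% higher and 6.0% lower over all genes. In the same test 5 of 10 fibroblast markers were higher and 0 lower (median 0.65). Of 8 collagen genes whose proteins bind the DDR receptors, 3 were higher and 0 lower (median 0.82). Of 20 other receptor tyrosine kinase genes, 0 were higher and 1 lower (median 0.20). The difference was 1.38 ± 0.19 for Met (adjusted p = 0.00752), 1.12 ± 0.23 for Igf1r (adjusted p = 0.0295) and 0.47 ± 0.11 for Ddr1 (adjusted p = 0.0370). For Met the WT and Cav1KO stiffness effects had opposite signs, for Igf1r a WT effect near 0 stood beside a lower level on stiff in Cav1KO cells, and for Ddr1 both effects were negative. The median over the 10 genes was 0.43, beside -0.07 over all genes. With the length trend removed this median was 0.10, beside -0.02 over all genes.

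Of the 5 comparisons this one had the widest spread of medians across classes of transcript length. Over all genes its median was -0.25 for transcripts under 2 kb (3333 genes), -0.09 from 2 to 4 kb (4906 genes), 0.12 from 4 to 7 kb (3133 genes) and 0.50 over 7 kb (1045 genes). Igf1r, Egfr, Insr and Ddr2 are in the longest class, where 16.6% of genes were called higher and 2.01% lower. With the length trend removed, Met was at 1.05 (adjusted p = 0.00261), Igf1r at 0.54 (adjusted p = 0.0418) and Ddr1 at 0.43 (adjusted p = 0.0339), and all 3 still passed. Egfr moved from 0.64 to 0.11, Ddr2 from 0.39 to -0.06 and Insr from 0.29 to -0.20, none of them called in either fit. Removing the trend also removes any real difference that goes with length, and these cannot be told apart here.

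Single libraries moved this count too, and they also moved the count over all genes. With single libraries left out, the median over the receptor genes was lowest without Cav1KO stiff replicate 2, at 0.30. It was highest without Cav1KO stiff replicate 1, at 0.50. The medians over all genes in these fits were -0.06 and -0.07. Met passed in 19 of the 20 alternative fits (adjusted p = 0.0554 without Cav1KO soft replicate 1), Igf1r in 14 and Ddr1 in 11.

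**Figure D3:**
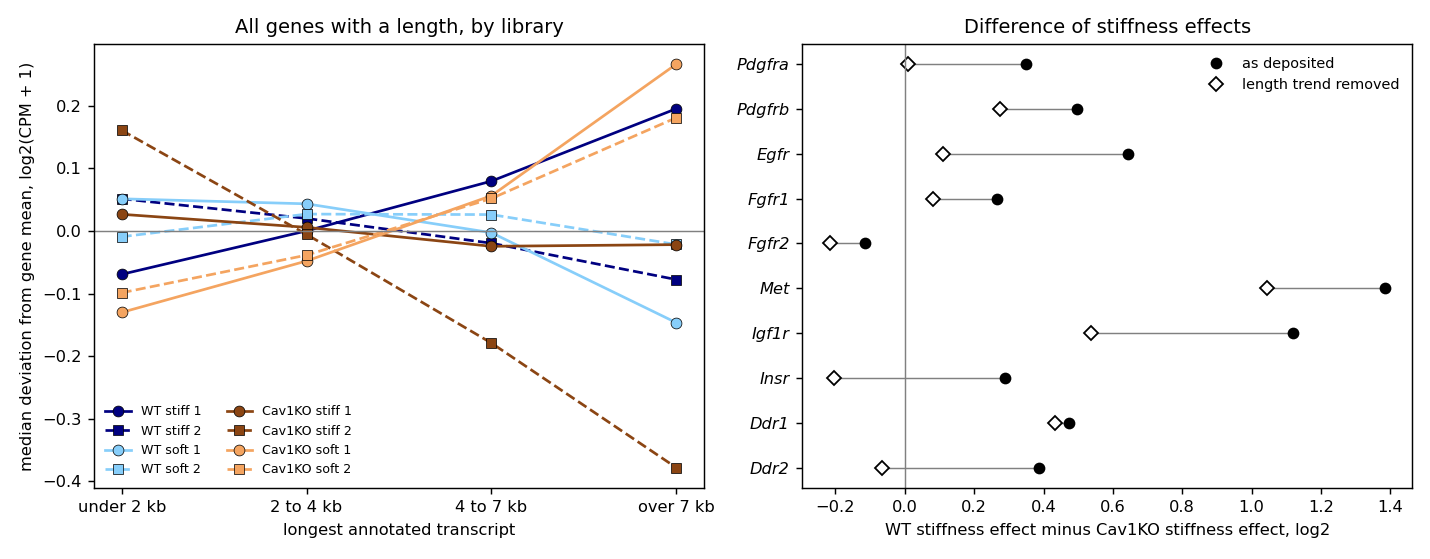
Left, the median deviation of genes from their mean over the 8 libraries in log2(CPM + 1) (y axis) by class of longest annotated transcript (x axis), 1 line per library. Right, the WT minus Cav1KO difference of stiffness effects (x axis) of each receptor gene as deposited (filled) and with the length trend removed (open). Cav1KO stiff replicate 2 goes from 0.16 under 2 kb to -0.38 over 7 kb, and Met keeps the highest value on the right in both fits.

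Cav1KO and WT cells were compared on each gel. On stiff gels 3 receptor genes were higher in Cav1KO cells (Pdgfrb, Fgfr1 and Fgfr2), 3 were lower (Met, Insr and Ddr1) and 4 did not pass. Over all genes 25.0% were higher and 26.6% lower. On soft gels 8 were higher, 1 lower (Ddr1) and 1 did not pass (Insr), against 24.1% higher and 29.9% lower over all genes. The receptor medians were -0.04 on stiff and 0.65 on soft, both beside -0.03 over all genes. With the length trend removed they were 0.12 and 0.44, beside -0.03 and -0.02 over all genes. As deposited, 38.3% of all genes over 7 kb were higher and 16.6% lower on soft, and 13.6% and 32.6% on stiff. The genotype comparisons share their libraries with the stiffness comparisons, so a high Cav1KO soft value enters both.

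**Figure D4:**
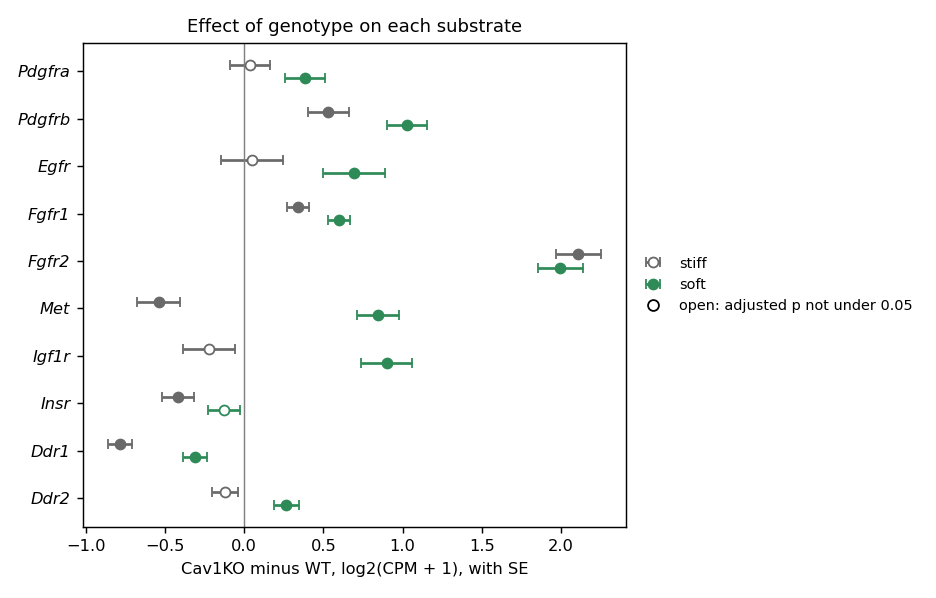
Cav1KO minus WT difference in log2(CPM + 1) (x axis) for each receptor gene, with its limma standard error as bars, on stiff (grey) and soft gels (green). Filled points passed the threshold on adjusted p. Fgfr2 stands at 2.11 and 2.0, and Ddr1 is the only gene with both filled points below 0.

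Fgfr2 had by far the largest genotype difference. Its mean was 4.69 times as high in Cav1KO as in WT cells on stiff gels and 4.13 times on soft gels, with no overlap. The log2 differences were 2.11 ± 0.14 (adjusted p = 6.11e-06) and 2.0 ± 0.14 (adjusted p = 8.38e-06), between 1.76 and 2.24 over the 20 alternative fits. Of its 60-nt transcript windows, 2.35% also occur in Ctbp2, whose annotated span overlaps that of Fgfr2.

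Pdgfrb and Fgfr1 were the other two genes higher in Cav1KO cells on both gels. Pdgfrb differed by 0.53 ± 0.13 on stiff (adjusted p = 0.0079) and 1.03 ± 0.13 on soft (adjusted p = 0.000207). Fgfr1 differed by 0.34 ± 0.07 on stiff (adjusted p = 0.00377) and 0.60 ± 0.07 on soft (adjusted p = 0.000139). Both genes passed on both gels under all 20 alternative fits.

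Met changed side between the gels. Its Cav1KO minus WT difference was -0.54 ± 0.13 on stiff (adjusted p = 0.00967) and 0.84 ± 0.13 on soft (adjusted p = 0.000896). The stiff call was lost without WT stiff replicate 1 (-0.41, adjusted p = 0.073). The soft call passed under all 20 alternative fits.

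Ddr1 was lower in Cav1KO cells on both gels, with differences of -0.79 ± 0.08 on stiff (adjusted p = 5.86e-05) and -0.31 ± 0.08 on soft (adjusted p = 0.00899). The soft call was lost without Cav1KO soft replicate 1 (-0.23, adjusted p = 0.0988). Insr was called lower on stiff only, at -0.42 ± 0.10 (adjusted p = 0.00857), and at -0.13 ± 0.10 on soft (adjusted p = 0.315). With the length trend removed the pattern of Insr turned, to -0.23 on stiff (adjusted p = 0.0653) and -0.43 on soft (adjusted p = 0.00362).

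The 4 genes with no called genotype difference on stiff were Pdgfra (0.04), Egfr (0.05), Igf1r (-0.22) and Ddr2 (-0.12). On soft gels they were higher in Cav1KO cells, Igf1r by 0.90 ± 0.16 (adjusted p = 0.00183), Egfr by 0.69 ± 0.19 (adjusted p = 0.0157), Pdgfra by 0.39 ± 0.13 (adjusted p = 0.0295) and Ddr2 by 0.27 ± 0.08 (adjusted p = 0.0216). Igf1r held under all 20 alternative fits and was at 0.52 (adjusted p = 0.00174) with the length trend removed. The Egfr call was lost without any 1 of the 4 soft libraries (adjusted p between 0.0622 and 0.0776), and Egfr was at 0.36 (adjusted p = 0.0408) with the length trend removed. The Pdgfra call was lost without WT soft replicate 2 (0.28, adjusted p = 0.174), Cav1KO soft replicate 1 (0.38, adjusted p = 0.112) or Cav1KO soft replicate 2 (0.39, adjusted p = 0.107). The Ddr2 call was lost without WT soft replicate 1 (0.21, adjusted p = 0.122), Cav1KO soft replicate 1 (0.23, adjusted p = 0.143) or Cav1KO soft replicate 2 (0.30, adjusted p = 0.063). With the length trend removed, Pdgfra was at 0.20 (adjusted p = 0.109) and Ddr2 at -0.01 (adjusted p = 0.938), and 6 genes were higher and 2 lower on soft. Without Cav1KO soft replicate 1 or replicate 2, 5 genes were called higher on soft. Without WT stiff replicate 1, only 1 gene, Ddr1, was called lower on stiff.

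Of 7 macrophage markers 2 had a value, Cd68 and Cd14. Their sum was 24.9 to 40.4 CPM in WT and 92.8 to 103.6 CPM in Cav1KO libraries. On stiff Cd14 was higher in Cav1KO cells by 1.86 (adjusted p = 2.73e-06), while Cd68 differed by 0.36 and did not pass (adjusted p = 0.0754). On soft both were called higher in Cav1KO cells. Ptprc, Adgre1, Itgam, Csf1r and Lyz2 had no value.

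On stiff gels 8 of the 10 fibroblast markers were lower and 1 higher in Cav1KO cells (median -0.78). Among all genes tested, 26.6% were lower and 25.0% higher. Their sum there was 11299 and 11366 CPM in WT and 4886 and 6071 CPM in Cav1KO libraries. On soft gels 3 were higher, 3 lower and 4 did not pass (median -0.05), against 24.1% higher and 29.9% lower over all genes. Of the 3 mural cell markers, 1 was called lower in Cav1KO cells on each gel. This was Cspg4, named after its values were seen, whose mean was 18.9 CPM on stiff and 24.1 on soft gels in WT cells, against 0 and 0.077 in Cav1KO cells (adjusted p = 6.39e-07 and 4.4e-07). Notch3 was higher in Cav1KO cells on soft, by 0.83 (adjusted p = 0.00385). The part of the macrophage, fibroblast and mural cell markers in the receptor results was not tested.

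Levels of different receptors were compared as mean CPM per kb of the longest annotated transcript. In WT stiff the order was Ddr1 (20.6), Fgfr1 (20.5), Pdgfra (19.1), Ddr2 (17.1), Met (12.2), Pdgfrb (11.9), Igf1r (3.82), Insr (3.16), Fgfr2 (2.17) and Egfr (1.33). Ddr1 overlapped with Fgfr1, Fgfr1 with Pdgfra and Met with Pdgfrb, and no other neighbours overlapped. In WT soft Pdgfra (43.2) and Fgfr1 (37.8) led, followed by Ddr1 (31.4) and Pdgfrb (22.9), with no overlap between neighbours among these. Insr (4.27) overlapped with Fgfr2 (3.88) and Fgfr2 with Igf1r (3.74), and Egfr (1.75) was last.

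In Cav1KO stiff Fgfr1 (26.0) stood first and clear of Pdgfra (19.7), which overlapped with Pdgfrb (17.4), as Pdgfrb did with Ddr2 (15.8). Fgfr2 (10.2) had moved to sixth place, overlapping with Met (8.42). In Cav1KO soft Fgfr1 (57.5), Pdgfra (56.4) and Pdgfrb (46.8) stood well above Ddr1 (25.3), and Ddr2 (18.3) overlapped with Met (17.9). Egfr was last in all 4 groups, at 1.40 in Cav1KO stiff and 2.89 in Cav1KO soft. Per kb of all annotated exons Fgfr1 was first in every group, in place of Ddr1 in WT stiff and of Pdgfra in WT soft. On that scale Pdgfra (15.4) came after Pdgfrb (17.3) and Ddr2 (15.8) in Cav1KO stiff. In Cav1KO soft Pdgfra (43.9) came after Pdgfrb (46.3).

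Across the 8 libraries, which form 4 groups that most genes follow, some receptors moved almost alike. The Pearson correlation of log2(CPM + 1), given as a description with n = 8 libraries, was 0.98 between Pdgfrb and Fgfr1, 0.97 between Insr and Ddr1, 0.96 between Pdgfra and Fgfr1, and 0.93 between Met and Igf1r. It was lowest between Fgfr2 and Ddr1, at -0.24. Over 10063 genes with a mean of 5 CPM or more, the gene most like Pdgfra was Dcaf6 (0.998), for Pdgfrb Antxr1 (0.997), for Fgfr1 Sp140 (0.997) and for Fgfr2 Vcam1 (0.997). For Egfr it was Zhx3 (0.996), for Insr Vps39 (0.995), for Ddr1 Adar (0.994), for Met Zfp397 (0.987) and for Ddr2 Tmem131 (0.982). The likeness of libraries within a group and the shared length trend enter all of these values.

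Ligands were measured in the same libraries, and 12 of 22 could be tested. In WT cells 4 were higher and 4 lower on stiff, and in Cav1KO cells 5 were higher and 1 lower. The shares over all genes were 22.1% higher and 26.3% lower in WT, and 27.9% and 28.2% in Cav1KO cells. The ligand medians were -0.08 and 0.03. Among ligands with a mean of at least 5 CPM, the largest rise in both was that of Hbegf, a ligand of EGFR, by 1.22 ± 0.14 in WT (adjusted p = 0.000263) and 1.18 ± 0.14 in Cav1KO cells (adjusted p = 0.000203). Its means were 37.0 CPM on stiff and 15.3 on soft gels in WT cells, and 10.8 on stiff and 4.22 on soft gels in Cav1KO cells. Areg, a ligand of EGFR below that limit and named after its values were seen, rose by 1.46 in WT cells (adjusted p = 0.000462), with means of 7.55 CPM on stiff and 2.16 on soft gels. Fgf10, a ligand that signals through one form of FGFR2, had the largest fall in WT cells, at -1.31 (adjusted p = 0.00057). Between genotypes, 7 ligands were lower and 4 higher in Cav1KO cells on stiff, and 8 lower and 3 higher on soft. The shares over all genes were 26.6% lower and 25.0% higher on stiff, and 29.9% and 24.1% on soft.

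Igf2, a ligand of the IGF1 receptor, was at 7 and 3 reads in WT stiff and 21 and 20 in WT soft. In Cav1KO cells it was at 143.5 and 100.5 CPM on stiff and 486.5 and 488.3 CPM on soft. The WT values were all under 1.3 CPM, and the Cav1KO difference between stiff and soft was -2.01 ± 0.17 (adjusted p = 3.43e-05). Both Igf2 and Igf1r had their highest values in the Cav1KO soft libraries, as did every other receptor gene described here except Insr and Ddr1.

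Of 9 collagen genes whose proteins bind the DDR receptors, 8 could be tested. In WT cells 3 were lower and 1 higher on stiff, and in Cav1KO cells 7 were lower and 1 higher. Among all genes tested, 26.3% were lower and 22.1% higher in WT, and 28.2% and 27.9% in Cav1KO cells. The collagen medians were -0.01 and -1.5. Col3a1, the fibrillar collagen III, fell in both genotypes, with stiffness effects of -2.11 ± 0.16 in WT (adjusted p = 5.85e-05) and -2.37 ± 0.16 in Cav1KO cells (adjusted p = 1.94e-05). Col8a1, a short-chain collagen, was the gene that was higher on stiff, by 1.02 (adjusted p = 0.00136) and 0.69 (adjusted p = 0.00742). The list shares Col1a1, Col1a2 and Col3a1 with the fibroblast markers.

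Among co-receptors and receptor-binding proteins, 12 of 15 could be tested. In WT cells 2 were higher and 3 lower on stiff, and in Cav1KO cells 5 and 5, with medians of -0.05 and -0.11. For all genes the shares were 22.1% higher and 26.3% lower in WT, and 27.9% and 28.2% in Cav1KO cells. Lrp1, an endocytic receptor that binds PDGFRB, was at 205.0 and 189.1 CPM on stiff and 197.8 and 225.8 on soft gels in WT cells, and 173.1 and 111.9 on stiff and 465.3 and 447.5 on soft gels in Cav1KO cells. The Cav1KO soft libraries lay above the WT libraries and the Cav1KO stiff libraries below them, and the genotype difference on stiff was -0.50 (adjusted p = 0.0392). Its stiffness effect was -1.71 in Cav1KO cells (adjusted p = 8.46e-05) and -0.10 in WT cells (adjusted p = 0.656), and the difference was 1.60 ± 0.24 (adjusted p = 0.0112). Nrp1, a co-receptor of PDGF and VEGF receptors, had the largest rise in WT cells, by 0.99 (adjusted p = 0.00712), and Sdc2, a heparan sulfate carrier, the largest fall, at -0.70 (adjusted p = 0.000157). Gpc1, a heparan sulfate carrier too, had the largest rise in Cav1KO cells, by 0.64 (adjusted p = 0.00265).

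Adaptors and signal enzymes went both ways. All 34 could be tested, with 8 higher and 7 lower on stiff in WT and 11 and 11 in Cav1KO cells. The medians were 0.00 and -0.08. These counts are near the shares over all genes, 22.1% higher and 26.3% lower in WT and 27.9% and 28.2% in Cav1KO cells. Mapk3, which encodes ERK1, fell by 0.93 in WT (adjusted p = 8.59e-05), and Pik3cb, a PI3K catalytic subunit, rose by 0.76 (adjusted p = 0.000666). In Cav1KO cells Hras rose by 1.05 (adjusted p = 6.04e-05) and Irs2, a docking protein of the insulin and IGF1 receptors, fell by 1.09 (adjusted p = 0.000677). Of the 28 feedback inhibitors and phosphatases, 6 were higher and 6 lower in WT and 5 and 7 in Cav1KO cells. None of these counts exceeds its share over all genes. The medians were 0.08 and -0.05. Dusp5, an ERK phosphatase, rose by 1.0 in WT cells (adjusted p = 0.000157), and Socs2, an inhibitor of cytokine signalling, fell by 1.26 (adjusted p = 0.000451). In Cav1KO cells Dusp7, an ERK phosphatase too, rose by 0.62 (adjusted p = 0.000176) and Ptprf, a receptor phosphatase, fell by 1.32 (adjusted p = 0.000145).

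Of 13 genes that respond to ERK, 7 were higher and 2 lower on stiff in WT cells, where 22.1% of all genes were higher and 26.3% lower. In Cav1KO cells 8 were higher and 4 lower, where 27.9% of all genes were higher and 28.2% lower. The medians were 0.36 and 0.45, beside -0.02 over all genes in both. Ccnd1, the cyclin that carries growth factor signals to the cell cycle, was at 495.4 and 482.7 CPM on stiff and 197.1 and 218.7 on soft gels in WT cells, and 365.3 and 344.1 on stiff and 257.8 and 261.6 on soft gels in Cav1KO cells. Its rise on stiff was 1.23 ± 0.07 in WT (adjusted p = 3.42e-05) and 0.45 ± 0.07 in Cav1KO cells (adjusted p = 0.0011), and the difference passed (0.78 ± 0.10, adjusted p = 0.00726). Fos fell in both, with effects of -1.11 (adjusted p = 0.000483) and -1.32 (adjusted p = 0.00014). Il1rl1, which encodes the IL-33 receptor and responds to serum, fell by 0.54 in WT (adjusted p = 0.00522) and rose by 1.0 in Cav1KO cells (adjusted p = 0.000129).

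Of 48 other receptor tyrosine kinase genes, 20 could be tested. On stiff, 3 were higher and 6 lower in WT and 4 higher and 10 lower in Cav1KO cells. The shares over all genes were 22.1% higher and 26.3% lower in WT, and 27.9% and 28.2% in Cav1KO cells. The medians were -0.12 and -0.27, beside -0.51 and -1.08 for the 10 receptor genes described here. The largest fall in both was Ephb6, an ephrin receptor without kinase activity, at 7.63 and 8.72 CPM on stiff and 37.9 and 28.0 on soft gels in WT cells, and 39.2 and 34.1 on stiff and 102.4 and 108.0 on soft gels in Cav1KO cells. Its order of groups had the same first and last places as Fgfr1 and Pdgfrb. Epha2, an ephrin receptor, had the largest rise in WT cells, by 0.92 (adjusted p = 0.00104), and was lower in Cav1KO than in WT cells on stiff (-2.36, adjusted p = 3.33e-06). Styk1 had the largest rise in Cav1KO cells, by 0.65 (adjusted p = 0.00134). Between genotypes, 10 of the 20 were higher and 5 lower in Cav1KO cells on stiff, and 11 higher and 6 lower on soft. Over all genes 25.0% were higher and 26.6% lower on stiff, and 24.1% and 29.9% on soft. The genotype medians of the 20 were 0.32 and 0.53, beside -0.04 and 0.65 for the 10 receptor genes.

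The genes lie on 8 chromosomes (GRCm38, GENCODE M21 spans of the gene). Pdgfra is at chr5:75152292-75198215, Egfr at chr11:16752203-16918158, Fgfr1 at chr8:25513654-25575718 and Met at chr6:17463800-17573980. Igf1r is at chr7:67952827-68233668 and Fgfr2, whose annotated span takes in other genes, at chr7:130162451-133123350. Insr is at chr8:3122061-3279617, Ddr1 at chr17:35681567-35704621, Ddr2 at chr1:169972307-170110762 and Pdgfrb at chr18:61045150-61085061. At most 4.49% of a gene's 60-nt transcript windows (Pdgfra, with Gm42802 and Gm42803) also occur in another annotated gene. The library kit does not mark strand, so reads from overlapping or antisense transcripts cannot be told apart from these genes' own.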

How the data were processed

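Poly(A) RNA was sequenced as single reads of 60 nt. The submitters' processing notes name CASAVA 1.8.2, cutadapt, RSEM 1.2.3 and build GRCm38, with no roles. The authors deposited TMM-normalized CPM per gene, a signal of reads divided by an effective library size. Each value was a whole multiple of 1 read (100% of values, within 0.01 reads per 1000), so reads were recovered. The 10 genes and all gene lists were chosen with earlier results of these data known.

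The 12494 genes that reached 1 CPM in 2 or more of 8 libraries were tested with limma 3.58.1 (R 4.3.3) on log2(CPM + 1), pseudocount 1, with a mean-variance trend, 4 groups in 1 fit, 4 residual degrees of freedom, two-sided, Benjamini-Hochberg, threshold 0.05. Fold changes on this scale understate changes of low genes. Counting error and its 3-read limit do not cover other error. Alternatives were edgeR 4.0.16 and DESeq2 1.42.0 on the recovered reads, other scalings, pseudocounts and filters, no trend, a replicate block, each library left out, and a 2-fold minimum. Removal of a spline (4 degrees of freedom) of each library's deviations on log2 length of the longest GENCODE M21 transcript was added after the data were seen. Scripts were tested on simulated data. Named genes were the 10, Cav1, the largest rise and fall per list and genotype among called genes with a mean of at least 5 CPM, and the most correlated genes. Replicates of a group differed by more than sampling noise in all 4 groups, and to unequal degrees. Chi-square per degree of freedom was 17.8 in Cav1KO stiff, 14.8 in WT soft, 11.6 in WT stiff and 3.47 in Cav1KO soft. The fit shares 1 spread over the 4 groups, so its standard errors do not show this inequality.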

Additional observations from a re-analysis of the deposited data

Results flagged for a closer look

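For 3 receptor genes the stiffness effect differed between WT and Cav1KO cells in the test of the difference itself (limma, WT effect minus Cav1KO effect). The values were 1.38 for Met, 1.12 for Igf1r and 0.47 for Ddr1. With the length trend removed they were 1.05, 0.54 and 0.43, and all 3 still passed. With a replicate block as well, Igf1r no longer passed (adjusted p = 0.0558, limma). Of the 20 alternative fits, Met passed in 19, Igf1r in 14 and Ddr1 in 11. Groups of 2 libraries are too small for a test of single outlying libraries.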

How the results depend on the processing

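Each receptor gene was refitted under 20 alternatives in 5 comparisons, 1000 values in all, of which 909 kept direction and side of the threshold, 50 lost it, 18 gained it and 23 changed sign. Receptor counts kept within 1.5 times except as follows. Called higher on stiff in WT were 2 with median centring, and 1 with the replicate block, with or without the length trend. A 2-fold minimum left 1 lower in WT, 1 higher and 0 lower by genotype on stiff, and 2 higher and 0 lower on soft. Removing the length trend gave 2 lower by genotype on soft, with or without the block. Leaving out single libraries gave 0 to 1 higher and 5 to 7 lower by stiffness in WT, 0 higher and 9 to 10 lower in Cav1KO, 3 higher and 1 to 4 lower by genotype on stiff, 5 to 8 higher and 0 to 1 lower on soft, and 0 to 7 higher and 0 lower for the difference of effects.

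Signs turned only for uncalled values, except Ddr2 in Cav1KO stiffness and on soft. Without the length trend Igf1r in WT was at -0.16, Ddr2 at 0.103 in Cav1KO stiffness, 0.0574 by genotype on stiff, -0.00749 on soft and -0.0649 in the difference, and Insr at -0.203 in the difference, equally with the block. With single libraries left out, Igf1r in WT ranged from -0.094 to 0.166, and by genotype on stiff Pdgfra ranged from -0.149 to 0.222, Egfr from -0.259 to 0.355 and Igf1r from -0.468 to 0.0233. The Fgfr2 difference was 0.0883 with quantile normalization, 0.0138 with a pseudocount of 5 and -0.31 to 0.0787 with single libraries left out. The causes were not tested.

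Whether replicate numbers pair the libraries could not be settled. Differences between the replicates of a group correlated at 0.58 between WT stiff and Cav1KO stiff and at -0.49 between WT stiff and WT soft. The length trend, which differs between replicates, enters these values. The replicate block left 10 genes' other calls in place except Ddr2 in Cav1KO stiffness (adjusted p = 0.0556), and Met in WT passed (adjusted p = 0.037). Over all genes, the difference of effects had 559 higher and 750 lower calls, 361 higher with edgeR, 314 and 391 without the mean-variance trend, and 23 to 1752 higher and 69 to 1693 lower with single libraries left out. Stiffness in WT went from 2763 higher and 3283 lower to 1698 and 2138 without WT soft replicate 1, and genotype on soft from 3014 to 1988 higher without Cav1KO soft replicate 1. With the block and the length trend removed together, the Igf1r difference no longer passed (adjusted p = 0.0558). Precision is limited by 2 libraries per group.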
